A study of Homo sapiens with 3 samples.

Results

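TTI2 and the genes around it were examined in HCT116 cells, a human colorectal carcinoma line, in which the arginine methyltransferase PRMT1 had been knocked down. The 9 genes were the 3 subunits of the TTT complex (TTI1, TTI2 and TELO2) and the 6 kinases or kinase-like proteins of the PIKK family (ATM, ATR, MTOR, PRKDC, SMG1 and TRRAP). They were taken as every non-control probe on the array that carried 1 of these names, which gave 18 probes, out of 56694 named probes for 41749 gene names. The set was chosen by the lowered signal of TTI2 in these same arrays, so its change against the control is given as a description and tests nothing. RNA of PRMT1-NC, PRMT1-KD1 and PRMT1-KD2 cells (written NC, KD1 and KD2) was hybridised to 1 Agilent 1-colour array each. NC stands for the negative control, and KD1 and KD2 for PRMT1 knockdowns. The study's methods describe siRNA against PRMT1 delivered by lipid transfection, whereas its results speak of short hairpin RNAs, and which of the listed siRNA made KD1 or KD2 is not given in the sources used here. The methods also name a second negative control and SMARCA4 knockdowns, which were not analysed here. All groups share the HCT116 background. With a single array for each, the differences given here carry no p-value and could not be checked against replicates.

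TTI1, TTI2 and TELO2 form a co-chaperone that works with HSP90 and with the R2TP assembly machinery, which holds the ATPases RUVBL1 and RUVBL2, to fold and stabilise newly made PIKK proteins. ATM and ATR signal DNA breaks and stalled replication, and PRKDC is the catalytic subunit of DNA-PK, which acts in end joining. MTOR senses nutrients and growth factors, SMG1 starts nonsense-mediated decay by phosphorylating UPF1, and TRRAP is a kinase-dead scaffold of histone acetyltransferase complexes. The TTT complex acts on protein, whereas the arrays measured RNA.

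The 2 siRNA sequences listed for PRMT1 are printed first because the study's methods give them for its knockdown, in lower case and 5′ to 3′.
PRMT1 siRNA-1: cugaaguccaggucgauggugaaguc
PRMT1 siRNA-2: uuguagucuuuguacugcc

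The array reads each gene through probes of 60 bases, and several members have more than 1. Several probes of ATR, ATM and SMG1 are printed, and the probes of each of these genes moved by different amounts. The only ATM and SMG1 probes past 1.5-fold against NC, A_33_P3218410 for ATM and A_24_P244952 for SMG1, are not among those printed. The printed probes are written 5′ to 3′ as in the deposited files, in lower case throughout since the whole probe hybridises. Positions are those of the files, in genome build hg19. The probes of ATR lie on the minus strand of chromosome 3, at 142185167 to 142185226 (A_33_P3362498) and 142168364 to 142168423 (A_23_P136058).
ATR A_33_P3362498: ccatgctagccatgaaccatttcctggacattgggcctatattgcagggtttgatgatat
ATR A_23_P136058: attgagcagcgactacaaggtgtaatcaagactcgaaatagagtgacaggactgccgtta

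For ATM, on the plus strand of chromosome 11, the probe near the start of transcript NM_000051 lies at 108099942 to 108100001 (A_33_P3589722), and the probe near its end at 108236085 to 108236144 (A_23_P35916).
ATM A_33_P3589722: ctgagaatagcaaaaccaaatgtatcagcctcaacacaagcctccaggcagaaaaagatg
ATM A_23_P35916: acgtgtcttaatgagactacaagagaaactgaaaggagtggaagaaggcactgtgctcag

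For SMG1, on the minus strand of chromosome 16, the files list pseudogene transcripts beside SMG1 for 4 of its 5 probes. A_33_P3394517 (18907375 to 18907434) and A_21_P0011465 (18900729 to 18900788) also list SMG1P1 and SMG1P5. A_33_P3218252 (18887516 to 18887575) and A_23_P26358 (18872012 to 18872071) list SMG1P1, SMG1P3 and SMG1P5.
SMG1 A_33_P3394517: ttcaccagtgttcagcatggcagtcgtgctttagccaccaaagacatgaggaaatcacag
SMG1 A_21_P0011465: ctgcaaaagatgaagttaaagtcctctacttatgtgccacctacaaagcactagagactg
SMG1 A_33_P3218252: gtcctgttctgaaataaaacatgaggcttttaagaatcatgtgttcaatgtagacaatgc
SMG1 A_23_P26358: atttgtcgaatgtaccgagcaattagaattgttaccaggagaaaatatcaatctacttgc

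Each array held 62976 spots, and between 40.8% and 42.5% of the 58201 non-control probes were well above background by the scanner software's own mark. No non-control spot was saturated. A level below is the log2 of the background-corrected intensity minus the 75th percentile of all non-control probes on that array, so 0 stands for the 75th percentile. The error beside a change is the standard error that the extraction software assigns to the spots, carried to the log2 scale. It covers technical error of 1 array only and leaves out the spread between cultures. A further yardstick was the spread between KD1 and KD2, whose differences had a robust SD of 0.38 log2 units across the 17054 genes that stood above background on every array. Of 9 colorectal epithelium markers, 6 were above background on all arrays (EPCAM, KRT8, KRT18, KRT19, CDH1 and CDX2), while VIL1 and CDH17 were on none. Among markers of other cells, CD3E, COL1A2, DCN and PECAM1 were above background on no array. CD14, COL1A1 and CDH5 were above it on all of them, and the leukocyte list summed to intensities of 94.0 on NC, 135 on KD1 and 154 on KD2. The fibroblast list summed to 339, 536 and 553 and the endothelial list to 28.1, 109 and 41.8, against 550000, 545000 and 474000 for the epithelial list. The cells were a cultured line, and the source of the signal from markers of other cells was not tested.

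PRMT1, the knocked-down gene, was read by 1 probe, with a level of 6.03 on NC, 2.75 on KD1 and 1.48 on KD2. The signal fell to 10.3% of the control in KD1 and to 4.26% in KD2, so the target was low in both knockdown arrays and lower in KD2.

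TTI2, which binds TTI1 within the complex, was the member with the largest change. Its 1 probe (A_33_P3324655, transcript NM_025115) lies on the minus strand of chromosome 8 at 33356241 to 33356300. The NC array gave a processed intensity of 107, the KD1 array 40.2 and the KD2 array 24.9. Each was well above background, and the levels were -0.10, -1.93 and -2.30. Both knockdown arrays thus lay below the control, with KD2 the lowest. The KD1 change was -1.82 ± 0.25 on the log2 scale, which left 28.2% of the control, and the KD2 change was -2.20 ± 0.29, which left 21.8%. KD1 and KD2 differed by 0.38 ± 0.32, about the robust SD of that difference over all genes. Both changes rest on the same single NC spot, whose pixels varied more than those of 98.2% of spots of like brightness, against 42.1% on KD1 and 21.9% on KD2, and the part of this scatter in the result was not tested.

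Ordered from the lowest change, TTI2 took place 129 among 19231 genes in KD1 and place 56 among 19421 in KD2. With only the 17054 genes above background on all arrays the places were 14 and 6. Among 528 symbol-bearing genes that passed 1.5-fold downward in both knockdowns and were detected on each array, TTI2 was in place 3 by mean change (-2.01). The deubiquitinase gene USP25 (-2.30) came just before it, and IL1RN (-1.92), the interleukin-1 receptor antagonist, just after. These ranks restate the choice of the set. TTI2 stayed past 1.5-fold under all 11 alternative settings in which its change was recomputed, with -1.87 to -1.07 in KD1 and -2.35 to -1.09 in KD2. The smallest changes came from normexp background correction, a model-based correction that adds an offset of 50 and draws dim spots together. It left TTI2 at 47.6% of the control in KD1 and 47.0% in KD2.

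None of the genes beside TTI2 on the chromosome was lowered as far as TTI2. MAK16, a ribosome assembly gene whose RefSeq model overlaps TTI2, was read by a probe on the opposite strand 2.13 kb away, with levels of 4.50 on NC, 4.75 on KD1 and 4.40 on KD2. It changed by 0.25 ± 0.06 in KD1 and by -0.10 ± 0.06 in KD2. The MAK16 probe has 10 spots on each array, which makes its error smaller. The probes given for RNF122, DUSP26 and FUT10 have 1 spot, so the errors are not alike. On the far side, RNF122, a ubiquitin ligase gene, stood at 1.13, 1.13 and 1.74, and the phosphatase gene DUSP26 at 0.71, 0.60 and 0.52. The KD1 and KD2 changes were 0.00 ± 0.21 and 0.61 ± 0.21 for RNF122. For DUSP26 they were -0.11 ± 0.21 and -0.20 ± 0.21. FUT10, a fucosyltransferase gene, was the neighbour with the lowest changes, at -0.65 ± 0.21 in KD1, past 1.5-fold, and -0.56 ± 0.21 in KD2. These values come from the brighter of its 2 probes, and the other is not reported here. The next genes outward, NRG1-IT3 and LINC01288, were not well above background on any array.

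**Figure D1:**
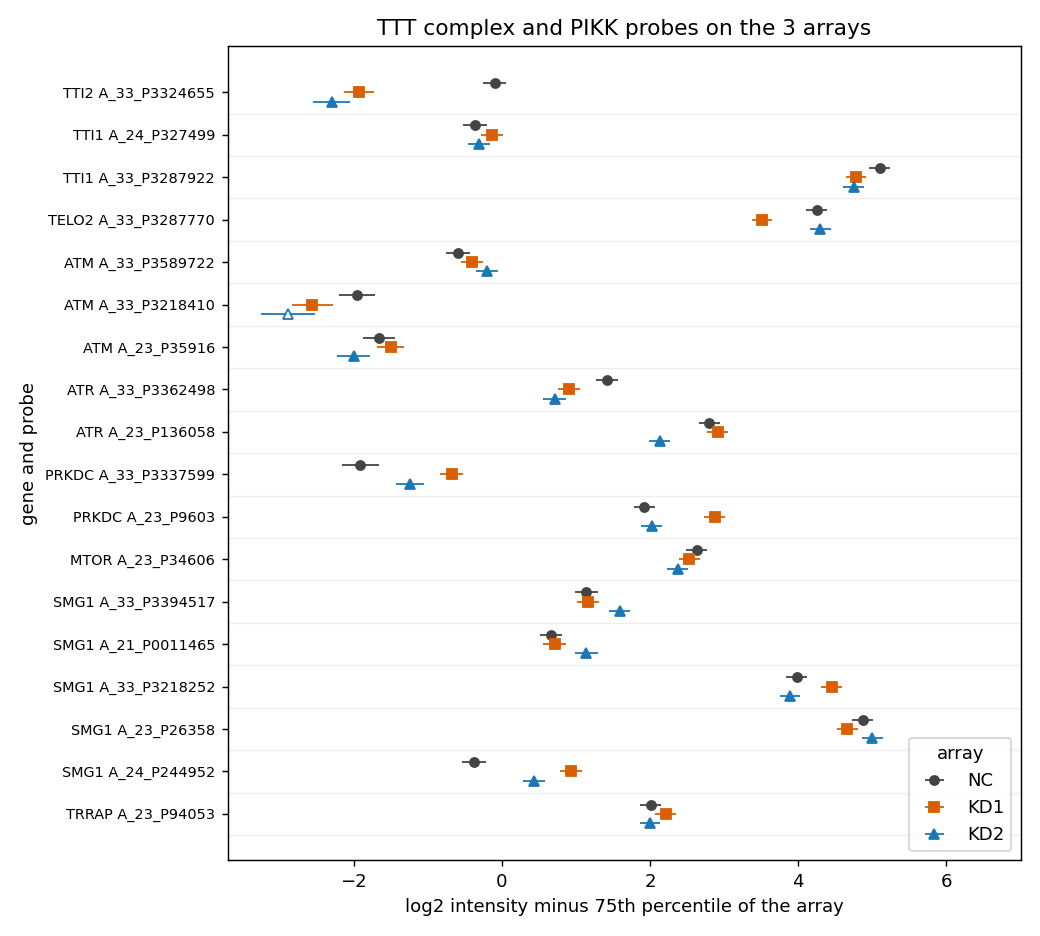
Levels of the 18 probes of the 9 genes on the NC, KD1 and KD2 arrays, in log2 units relative to the 75th percentile of each array, with the software's 1-array error as bars; an open symbol was not well above background. TTI2 sits at -0.10 on NC and at -1.93 and -2.30 on the knockdown arrays, and rows are not to be compared with each other in level since probes differ.

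The other subunits moved less. TTI1, the central subunit of the complex, had 2 probes on the minus strand of chromosome 20. The probe at 36611489 to 36611548 (A_33_P3287922) read 5.10 on NC, 4.78 on KD1 and 4.75 on KD2, which gave -0.32 ± 0.20 and -0.35 ± 0.20. The other, at 36627677 to 36631035 (A_24_P327499), extends over 3359 bases of the genome and so crosses a splice junction. It read -0.36, -0.13 and -0.31, or 0.23 ± 0.22 and 0.05 ± 0.22. No TTI1 probe reached 1.5-fold in either knockdown, and the 2 probes had opposite signs.

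TELO2, the subunit that binds HSP90 through the R2TP machinery, was low in KD1 alone. Its probe (A_33_P3287770, plus strand of chromosome 16, 1560392 to 1560451) read 4.25 on NC, 3.51 on KD1 and 4.30 on KD2. The change was -0.75 ± 0.20 in KD1, to 59.6% of the control, and 0.05 ± 0.20 in KD2, so the knockdowns differed by -0.80 ± 0.20. On KD1 the pixels of this spot varied more than those of 99.0% of spots of like brightness, against 42.3% on NC and 28.2% on KD2, and the part of this in the result was not tested. The call in KD1 was lost under scaling to spike-in probes (-0.10) and with the deposited series matrix values (-0.33). Those settings put the median change of all detected genes in KD1 at 0.58 and 0.35, against -0.07 in the reported setting. Relative to that median TELO2 stood at -0.68 in all of them. This was fixed in advance, since 1 factor per array moves all genes alike, and adds no support for the call.

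Among the kinases of the DNA damage response, ATR and PRKDC passed 1.5-fold in 1 knockdown each. ATR, the kinase of replication stress, read 2.80 on NC, 2.91 on KD1 and 2.13 on KD2 at the probe printed second above. The changes were 0.10 ± 0.20 in KD1 and -0.67 ± 0.20 in KD2, and the 2 knockdowns lay 0.77 ± 0.20 apart. The probe printed first read 1.42, 0.91 and 0.71, or -0.51 ± 0.21 and -0.71 ± 0.21. Both ATR probes were therefore past 1.5-fold downward in KD2, while in KD1 they differed by 0.61. At the brighter probe the KD2 value came to -0.58 with normexp correction, -0.38 with spike-in scaling and -0.57 with the series matrix values, all short of 1.5-fold. The KD2 spot of that probe stood above 96.4% of spots of like brightness in pixel scatter, and its part was not tested.

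PRKDC, the catalytic subunit of DNA-PK, was higher by 1.5-fold in KD1 on both of its probes, which lie close together on the minus strand of chromosome 8. The probe at 48686301 to 48686360 (A_23_P9603) read 1.92 on NC, 2.87 on KD1 and 2.02 on KD2. Its change was 0.95 ± 0.20 in KD1, to 193% of the control, and 0.10 ± 0.20 in KD2. The probe at 48686485 to 48686544 (A_33_P3337599) read -1.91, -0.68 and -1.24, or 1.22 ± 0.30 and 0.67 ± 0.31. KD1 was the highest array and NC the lowest at both, but in KD2 only the second probe passed 1.5-fold. Under the 11 alternatives the gene's KD1 change ran from 0.90 to 1.59.

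ATM, the kinase of DNA double-strand breaks, did not pass 1.5-fold at the probe that stands for it. The probe near the transcript start read -0.59 on NC, -0.40 on KD1 and -0.20 on KD2, or 0.19 ± 0.22 and 0.39 ± 0.22. Near the transcript end the levels were -1.66, -1.50 and -2.00, or 0.16 ± 0.27 and -0.34 ± 0.30. The remaining probe (A_33_P3218410, 108166338 to 108166397), which the files assign to clone transcript BC007023, read -1.96, -2.56 and -2.89. It was lower by -0.60 ± 0.37 in KD1. In KD2 it was not well above background, so the control was at least 1.82-fold higher. The ATM probes thus disagreed in sign in both knockdowns, over a range of 0.79 log2 units in KD1 and 1.26 in KD2.

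MTOR and TRRAP changed little at their single probes. MTOR (A_23_P34606, minus strand of chromosome 1, 11167492 to 11167551) read 2.63 on NC, 2.53 on KD1 and 2.37 on KD2, or -0.10 ± 0.20 and -0.26 ± 0.20. TRRAP (A_23_P94053, plus strand of chromosome 7, 98610354 to 98610413) read 2.01, 2.21 and 2.0, or 0.20 ± 0.20 and 0.00 ± 0.20. Neither reached 1.5-fold in the reported setting. TRRAP passed it upward in KD1 with spike-in scaling (0.85) and with the series matrix values (0.62), and ATM did so as well (0.84 and 0.61).

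SMG1 gave different answers by probe. The probe that stands for the gene (A_23_P26358) read 4.87 on NC, 4.66 on KD1 and 5.00 on KD2, or -0.21 ± 0.20 and 0.13 ± 0.20. The other 3 probes that also list pseudogenes changed by 0.46, 0.05 and 0.02 in KD1 and by -0.10, 0.47 and 0.45 in KD2, in the order A_33_P3218252, A_21_P0011465 and A_33_P3394517. None of these 4 probes passed 1.5-fold. The probe listed for SMG1 alone (A_24_P244952, 18816794 to 18816853) read -0.38, 0.93 and 0.43. It changed by 1.31 ± 0.21 in KD1, to 248% of the control, and by 0.81 ± 0.22 in KD2, to 175%. The probes of SMG1 thus spanned 1.52 log2 units in KD1 and 0.91 in KD2. The 4 probes with listed pseudogenes can take signal from those transcripts, so their values are uncertain for SMG1 itself, and the part of the pseudogenes was not tested.

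**Figure D2:**
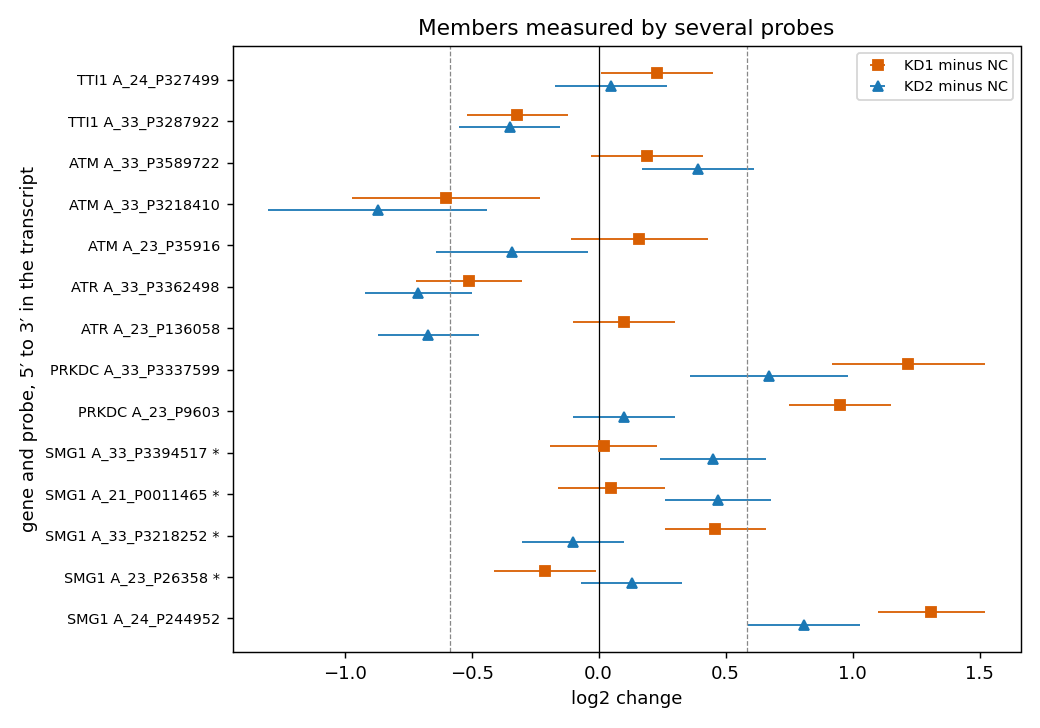
Log2 change against NC of each probe of the members with several probes, in transcript order, with propagated 1-array errors; dashed lines mark 1.5-fold and stars mark probes whose files entry also lists SMG1 pseudogenes. Both PRKDC probes lie past 1.5-fold in KD1, both ATR probes in KD2, and the SMG1 probe without a star lies at 1.31 and 0.81.

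Counted by gene, 2 of 9 members were lower by 1.5-fold in KD1 (TTI2 and TELO2), against 14.0% of all 19231 genes measured, and 1 was higher (PRKDC), against 12.4%. In KD2, 2 of 9 were lower (TTI2 and ATR), against 10.6% of 19421 genes, and 0 were higher, against 9.68%. TTI2 was the 1 member lower in both, against 5.62% of 18602 genes, and 0 members were higher in both, against 4.87%. Between KD1 and KD2, 3 of 9 members differed by 1.5-fold (TELO2, ATR and PRKDC), against 18.6% of 19544 genes. The KD1 and KD2 comparisons with NC used the same NC array, and since TTI2 chose the set, nothing is read from the counts that include it. With TTI2 set aside, 1 of the remaining members was lower in each knockdown and none in both. The median change of the 9 genes was -0.10 in KD1 and 0.00 in KD2, beside -0.07 and -0.05 over all genes measured. The split of all genes depended on the scaling. With spike-in scaling 1.88% were lower and 49.5% higher in KD1, and 3.62% and 22.6% in KD2. With the series matrix values these shares were 3.58% and 32.5%, and 7.41% and 13.4%. Read by probe, 3 of 18 were lower in KD1 (TTI2, TELO2 and 1 of ATM), against 13.5% of 24788 named probes measured, and 3 were higher (both of PRKDC and 1 of SMG1), against 12.6%. In KD2, 4 were lower (TTI2, both of ATR and 1 of ATM), against 10.2% of 24999 named probes, and 2 were higher (1 each of PRKDC and SMG1), against 9.74%. Probes of 1 gene share their target and are not independent.

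**Figure D3:**
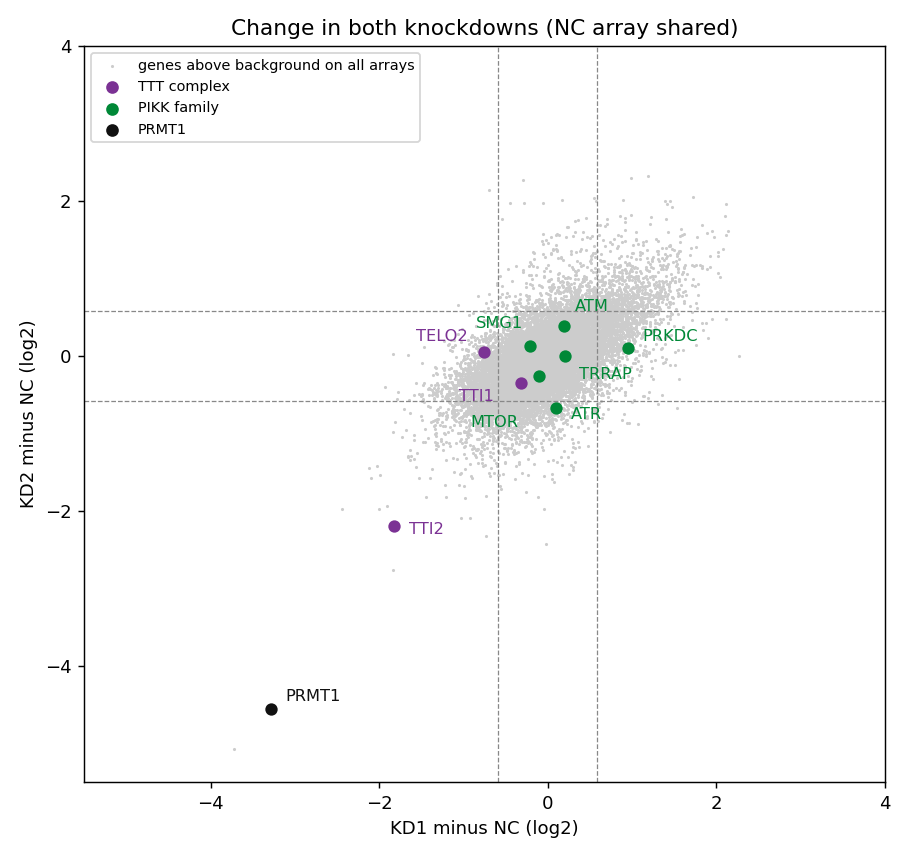
Log2 change against the shared NC array in KD1 (horizontal) and KD2 (vertical) for the 17054 genes above background on all arrays (grey), with the members and PRMT1 in colour and dashed lines at 1.5-fold. TTI2 lies at -1.82 and -2.20, far from the other 8 members, which lie within 1 log2 unit of no change on both axes.

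Genes that moved most like TTI2 were looked up by the distance between their pairs of changes, among 13544 symbol-bearing genes detected on each array. IL1RN was nearest (0.28 log2 units away), with -1.91 in KD1 and -1.94 in KD2. The next were LCN2 (lipocalin-2, an iron-siderophore carrier; 0.54), USP25 (0.56), CD209 (a lectin receptor; 0.68) and CCDC74A (a coiled-coil gene; 0.69). IL1RN was the only gene within 0.5 log2 units. Most of these genes were dim on the knockdown arrays, where the lowest levels well above background were -3.0 on KD1 and -2.82 on KD2. IL1RN read -2.36 and -2.39 there, CD209 -2.69 and -2.24, CCDC74A -2.17 and -2.22, and USP25 -1.76 and -2.69. LCN2 was brighter, at -0.96 and -1.33. IL1RN has 2 probes and CD209 has 3, of which only the brightest is given. The likeness rests on 3 arrays and on the shared NC array.

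The machinery that works with the TTT complex was then described from a list of 17 chaperone partners, all above background on all arrays. In KD1, 2 were lower and 1 was higher by 1.5-fold (11.8% and 5.88% of those measured, against 14.0% and 12.4% of all genes). The KD2 counts were also 2 and 1, against 10.6% and 9.68% of all genes. These shares of all genes apply to each list that follows. The medians were -0.01 and -0.12. WDR92, an R2TP-associated factor, was lower in both, at 2.24 on NC, 1.63 on KD1 and 1.54 on KD2, which gave -0.61 and -0.70. Its other probe changed by -0.03 and -0.63, so only 1 of its 2 probes was lower in KD1. CSNK2A2 is a catalytic subunit of casein kinase 2, the kinase that phosphorylates TELO2 for its binding to R2TP. At its brighter probe it was higher in both, at 2.97, 3.59 and 3.65 (0.62 and 0.68). Its other probe changed by 0.34 in each. The pixels of the brighter probe varied more than those of 98.6%, 95.5% and 96.8% of spots of like brightness on NC, KD1 and KD2. The part of this scatter was not tested. The other casein kinase 2 genes on the list went the other way at the brighter of their 2 probes. CSNK2A1, also a catalytic subunit, read 5.50 on NC and changed by -0.69 in KD1, past 1.5-fold, and -0.57 in KD2. CSNK2B, the regulatory subunit, changed by -0.27 and -0.49. RUVBL1 changed by 0.27 and -0.09 and RUVBL2 by -0.01 and -0.12. The HSP90 genes HSP90AA1 (0.00 and 0.11) and HSP90AB1 (0.28 and 0.40) did not reach 1.5-fold.

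Among 16 genes of the MTOR complexes and their regulators, of which 15 were measured, 2 were lower and 2 higher in KD1 (13.3% each), and 5 were lower and 1 higher in KD2 (33.3% and 6.67%). RICTOR, the defining subunit of MTOR complex 2, was higher in both, at 0.32 on NC, 1.27 on KD1 and 1.00 on KD2, which gave 0.96 and 0.69. TSC2, the GTPase-activating protein that restrains MTOR complex 1, was lower in both, at 2.03, 1.42 and 1.04 (-0.61 and -0.99). Its other probe changed by -1.10 in KD1 and by -1.01 in KD2, so both TSC2 probes were lower in both knockdowns. EIF4EBP1, a translation repressor that MTOR phosphorylates, was lower in both, at 6.91, 6.21 and 6.17 (-0.70 and -0.74). The list medians were 0.06 and -0.23.

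For the partners of ATM, ATR and DNA-PK, 20 of 21 genes were measured. In KD1, 3 were lower and 2 higher (15.0% and 10.0%), and in KD2 3 were lower (15.0%) and 0 higher, with medians of -0.14 and -0.17. None passed 1.5-fold the same way in both knockdowns. Among 9 genes of nonsense-mediated decay, the process that SMG1 starts, 0 were lower and 3 higher (33.3%) in KD1, and 1 was lower (11.1%) and 0 higher in KD2, with medians of -0.09 and 0.03. SMG8, a regulator of SMG1, was higher in KD1 (0.94) and lower in KD2 (-0.87).

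The last list held 33 genes of the acetyltransferase complexes that TRRAP scaffolds. In KD1, 1 was lower and 10 were higher (3.03% and 30.3%, against 14.0% and 12.4% of all genes). In KD2, 4 were lower and 5 higher (12.1% and 15.2%, against 10.6% and 9.68%), and the medians were 0.19 and 0.02. EP400, the ATPase of the TIP60 complex, was higher in both, at -2.20 on NC, -0.47 on KD1 and -1.04 on KD2, which gave 1.74 ± 0.30 and 1.16 ± 0.31. Its NC spot was dim, with an intensity of 24.9, and the lowest level well above background on NC was -2.69. TAF5L (0.84 and 1.04), TAF9 (0.81 and 0.67) and the deubiquitinase USP22 (0.87 and 0.72), all of the SAGA complex, were also higher in both. MEAF6, a subunit of TIP60, was higher at its brightest probe (0.90 and 0.60) but not at another (-0.45 and 0.07). TAF6L, a further SAGA subunit, was lower in both, at 4.48, 3.62 and 3.87 (-0.86 and -0.62). Of the acetyltransferases on the list, KAT5 (-0.15 and -1.20) and KAT2A (-0.45 and -0.89) were past 1.5-fold downward in KD2 only. KAT2B (1.13 and 0.30) was past it upward in KD1 only.

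Over all 96 partner genes, 94 of them measured, 8.51% were lower and 19.1% higher in KD1, and 16.0% were lower and 7.45% higher in KD2. These shares stand beside 14.0%, 12.4%, 10.6% and 9.68% of all genes. In both knockdowns 4 were lower (4.26%, beside 5.62% of all genes) and 7 higher (7.45%, beside 4.87%). Of the partner genes named above as lower in both or higher in both, TAF5L was the 1 that stayed so in both under all 11 alternatives. WDR92 and TSC2 came to 0.03 in KD1 with spike-in scaling, which turned their sign there, and EIF4EBP1 came to -0.05. TSC2 stayed past 1.5-fold in KD2 under all 11. EP400 came to 0.66 in KD1 and 0.41 in KD2 with normexp correction, against 1.74 and 1.16. Among these partner genes, direction ran with the base composition of the brightest probe. Probes of the higher genes held 35.0% to 40.0% G and C bases, and those of the lower genes 45.0% to 55.0%. MEAF6 had 36.7% at its brightest probe and 55.0% at the other. The second TSC2 probe, at 41.7%, was lower, as was the TTI2 probe, at 35.0%. The part of base composition was not tested. DEPTOR, an MTOR inhibitor, NBN, a subunit of the break-sensing MRN complex, and SMG8 moved past 1.5-fold in opposite directions. In KD1 they rose by 1.88, 1.12 and 0.94, and in KD2 they fell. Opposite movement was seen in 3 of the 94 genes (3.19%), beside 0.253% of 18602 genes. These genes were picked out after their values had been seen, so nothing is read from that share. DEPTOR and NBN were not well above background on KD2. NBN was raised there to the lowest signal well above background, so its fall (-0.82) is a lower bound in size. DEPTOR lay above that signal and kept its own uncertain KD2 value, with a fall of -0.74.

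**Figure D4:**
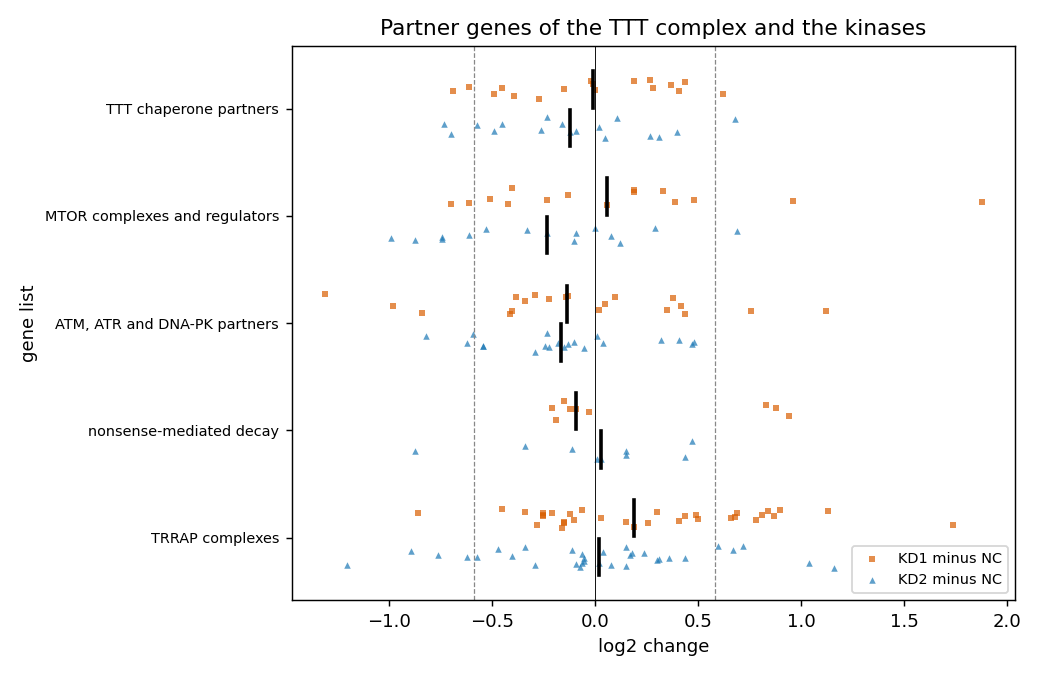
Log2 change of each partner gene against NC in KD1 (squares) and KD2 (triangles), by list, with black bars at the list medians and dashed lines at 1.5-fold. The medians lie between -0.23 and 0.19, and the TRRAP list holds 10 genes past 1.5-fold upward in KD1.

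**Figure D5:**
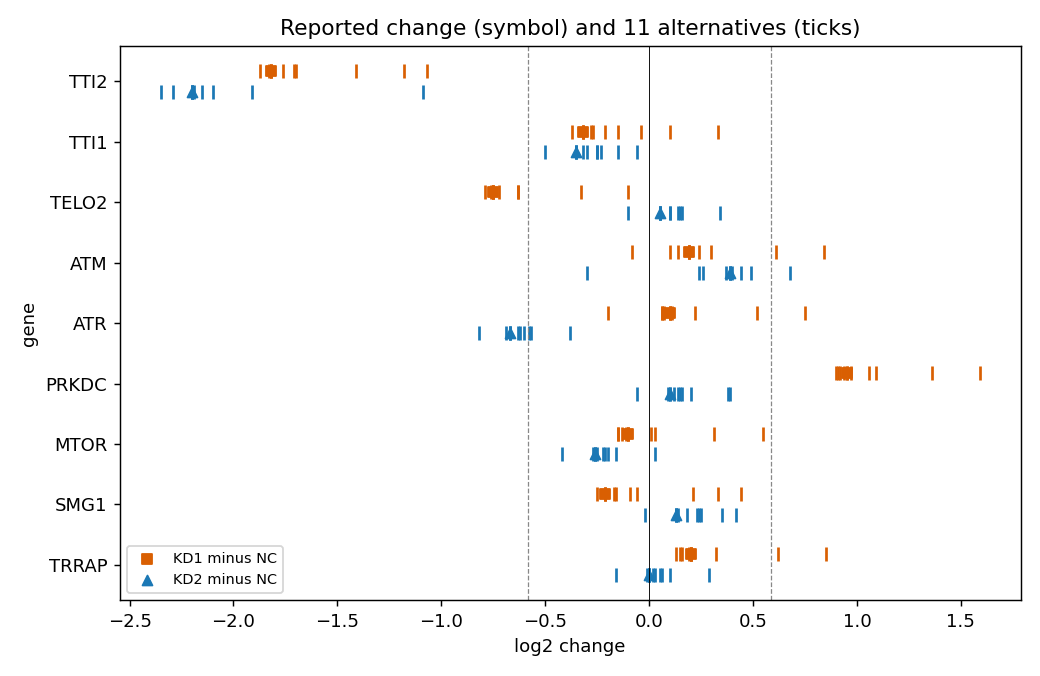
Log2 change of the 9 genes against NC in the reported setting (symbols) and under 11 alternative settings (ticks), with dashed lines at 1.5-fold. TTI2 stays past 1.5-fold in both knockdowns under every one of them, while TELO2 in KD1 reaches -0.10 and ATR in KD2 reaches -0.38.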

How the data were processed

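RNA of 3 HCT116 samples (PRMT1-NC, PRMT1-KD1 and PRMT1-KD2) was measured on 1 array each, all on 1 slide and in 1 scan. The authors deposited scanner files from Agilent Feature Extraction 10.7.1.1, in which the processed intensity of each spot is background-corrected on its array and not scaled between arrays. The deposited series matrix gives that intensity averaged by probe, also unscaled, and was an alternative. Genome positions in the files refer to hg19. RefSeq served for gene order and names only.

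Control spots and spots marked as outliers were left out, which dropped 130 probes. Spots of a probe were averaged as log2, and each array was set relative to its 75th percentile over all non-control probes. A gene was represented by its brightest probe over the arrays, and counted where it was well above background on at least 1 array compared. On other arrays a value below the lowest signal well above background was raised to it. Probes without a gene name (1507) were left out of gene counts. The threshold was the study's fold of 1.5. The study's p-value needs replicate arrays and was not computed. With 1 array a group, precision is limited by the number of arrays.

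The members and lists were chosen with earlier results of these data known. Named genes were the members with every probe, PRMT1, list members that passed 1.5-fold in both knockdowns with the same sign (at most 6 a list), the neighbours of TTI2, the 5 genes nearest to TTI2 by their 2 changes and those beside it in order of mean change. Other partner genes, and the genes that moved in opposite directions, were named after their values were seen. Simulated data were used to test the counting code. Alternatives were normexp correction (limma 3.58.1, R 4.3.3), quantile normalization, scaling to the median, to detected probes or to 8 E1A spike-in probes, removal of a brightness trend in 20 classes, the series matrix, the mean over probes, outlier spots kept, no floor or filter, genes above background on all arrays, and a fold of 2. Python 3.11.15, numpy 2.4.6, pandas 2.3.3 and matplotlib 3.10.9 were used.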

Additional observations from a re-analysis of the deposited data

How the results depend on the processing

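TTI2 stayed past 1.5-fold downward in both knockdowns under all alternatives run. Counts of members moved more. With normexp correction, 1 member was lower in KD2 (5.01% of all genes). With spike-in scaling, 1 was lower and 4 were higher in KD1 (1.88% and 49.5% of all genes), and 1 was lower and 1 higher in KD2 (3.62% and 22.6%). With the series matrix values, 1 was lower and 3 were higher in KD1 (3.58% and 32.5%), and 1 was lower in KD2 (7.41%). A fold of 2 left 1 lower and 0 higher in KD1 (3.57% and 4.19% of all genes), 1 lower in KD2 (2.48%) and 0 between the knockdowns (4.87%). The median change of detected genes was 0.58 in KD1 and 0.23 in KD2 with spike-in scaling, 0.35 and 0.04 with the series matrix, and 0.05 and -0.22 with median scaling. Relative to that median, TTI2 stood at -1.76 and -2.14 under each of these and in the reported setting, since 1 factor per array moves all genes alike. Median scaling changed the split of lower and higher genes to 9.61% and 16.5% in KD1 and to 18.1% and 6.05% in KD2. No called change of a member turned sign, but among named partner genes WDR92 and TSC2 turned to 0.03 in KD1 with spike-in scaling. With spike-in scaling the KD1 medians of the chaperone, MTOR and TRRAP lists were 0.64, 0.71 and 0.83. No paired analysis was possible because each group had 1 array. For the same reason no array could be left out of a comparison. Normexp correction moved TTI2 from -1.82 to -1.07 in KD1 and from -2.20 to -1.09 in KD2.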
